A study of Arabidopsis thaliana with 20 samples.

Results

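A set of 67 Arabidopsis thaliana probe sets had a high signal in the young first leaf pair and a low one in the mature leaf pair of both genotypes. They were taken from 22746 probe sets that are not array controls. The rule set signals under a floor of 33 to 33, took log2 and averaged the arrays of each leaf group. It kept probe sets whose wild-type mean at 5 d exceeded that at 15 d by at least 4.5 on the log2 scale, and whose triple mutant and wild-type means at 15 d lay less than 0.5 apart. The first condition held for 112 probe sets, and both for 68. AT1G63100, a named exclusion of the rule, was left out. The other 44 of the 112 had genotypes further apart at 15 d, with the triple mutant higher for 41 and lower for 3. The wild-type arrays of both ages and the mutant arrays at 15 d therefore chose the members, and contrasts between those arrays are given as a description with no test. The mutant arrays at 5 d were not used. The genotype test at 5 d sets them against the same 2 wild-type arrays that chose the members, and its estimate of the spread also uses the 15 d arrays.

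The study used 20 Affymetrix arrays, each of 22810 probe sets, to measure RNA in plants lacking MYB3R genes, with wild type of the Columbia accession. First leaf pairs of the myb3r1 myb3r3 myb3r5 triple mutant and of wild type were taken at 5 d, with 2 arrays per genotype, and at 15 d, with 3 arrays per genotype. Whole seedlings of 9 d were measured on 1 array per genotype, in 9 mutants and wild type. The mutants were myb3r1, myb3r3, myb3r4 and myb3r5 alone, the pair myb3r1 myb3r4, the pair myb3r3 myb3r5, 2 triple mutants (myb3r3 myb3r4 myb3r5, and the one used for leaves) and the quadruple mutant of all 4 genes. Growth was in continuous light at 22 °C, on half-strength MS agar holding 2% sucrose. The sources used here do not say which alleles were used, how many plants were pooled or whether replicates came from separate plants. The p-values in leaves thus cover the spread among these samples alone, which may be technical. Seedling genotypes had no replicate arrays, so the p-values in seedlings rest on what the fitted terms leave unexplained among genotypes. No probe set was paired with any of the 5 MYB3R genes, and the genotypes are those of the labels. The deposited values are linear MAS5 signals scaled to a common trimmed mean of 500.04 to 500.06 on every array. Their precision is limited by the number of arrays.

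MYB3R proteins are MYB transcription factors that bind promoters of genes used at the G2/M transition. MYB3R1 and MYB3R4 are known as activators in dividing cells, and MYB3R3 and MYB3R5, with MYB3R1, as repressors once cells stop dividing. A leaf of Arabidopsis begins as a field of dividing cells, which then leave the cell cycle and expand. In the same period the epidermis lays down its cuticle of cutin and wax, cell walls are remodelled, and stomata and trichomes are patterned.

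Other genes of the leaf samples gave a mixed picture of age. AT1G22690, listed as a guard cell marker, averaged 2840.4 in the triple mutant and 3346 in wild type at 15 d, against 134 and 14.8 at 5 d. The senescence gene SAG29 averaged 1282 in the triple mutant and 668 in wild type at 15 d, against 42.4 and 21.2 at 5 d. Of 14 photosynthesis genes 4 had a named probe set, and their summed signal ran from 37344 to 44508 in mutant and from 25341 to 30738 in wild-type leaves of 5 d. At 15 d it ran from 7116 to 48814 in the mutant and from 28003 to 64632 in wild type, so that it was not higher in the older leaves of the mutant on 2 of 3 arrays. Of 3 named root markers, EXPA7 and EXPA18 averaged 40.6 and 44.9 in mutant leaves at 5 d, and 10.7 and 42.2 in wild type. The other one, PYK10, was high in young leaves, with 5961 in the mutant and 8752 in wild type. Their part in the members' values was not tested. None of 5 vascular markers had a named probe set. In a bulk sample, fewer cells that hold a transcript and less of that transcript per cell cannot be told apart.

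The names of the members come from the supplied annotation, which pairs 32 of them with 1 gene, 2 with several genes and 33 with none. What each locus encodes is background knowledge, since the annotation mostly gives locus numbers. Of the 32 genes, 8 belong to surface lipid and lipid transfer families, 7 to wall and secreted protein families, 3 to division and the cytoskeleton, and 3 are developmental regulators. A CTP synthase and a jacalin-type lectin make 2 more, and 9 loci are given no role here. Ribosomal protein genes were to be left out, and none of the 32 is known as one, whereas the 33 without a name could not be checked. No gene or promoter sequence is printed, and promoters were not analysed here.

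**Figure D1:**
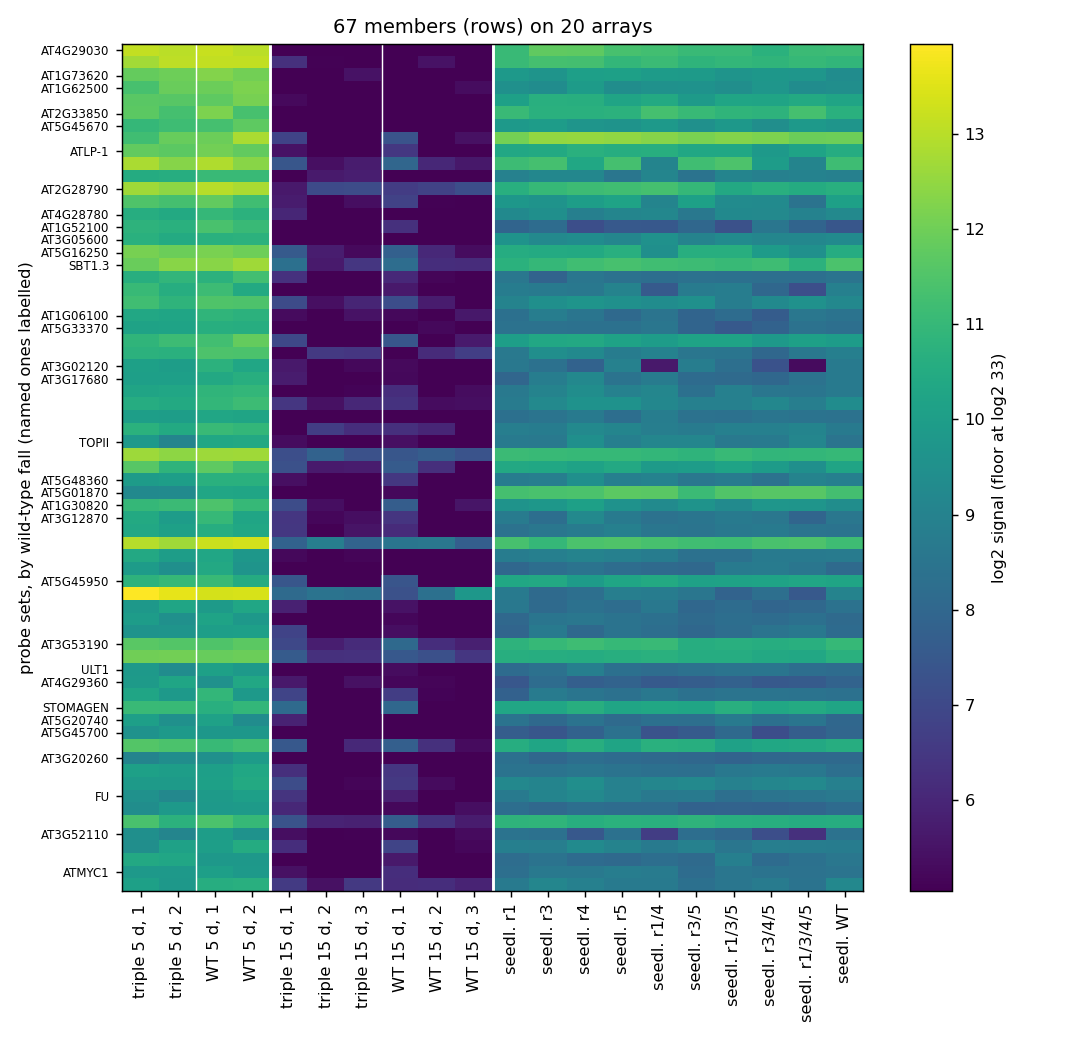
Log2 signal, floored at log2 33, of the 67 members (rows, ordered by the wild-type difference between 5 d and 15 d) on 20 arrays (columns; triple is myb3r1 myb3r3 myb3r5, and r1/4 stands for myb3r1 myb3r4 and so on). Members are bright on the 4 arrays at 5 d and dark on most arrays at 15 d. In seedlings 65 are above all 15 d arrays and 60 below all 5 d arrays, against 17.1% and 17.3% of all probe sets tested in seedlings. Both counts follow in part from the choice of members on these leaf arrays. AT3G02120 and AT3G52110 are dark in the myb3r1 myb3r4 and the quadruple mutant.

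Across the members the wild-type mean was higher at 5 d than at 15 d by 4.54 to 8.07 log2 units, with a median of 5.19. In the triple mutant, whose 5 d arrays the rule did not use, the same difference was 3.76 to 8.02 with a median of 5.01, and it reached 4.5 for 55 of 67. Over all 22746 probe sets 0.378% reached 4.5 in the mutant. Since the mutant 15 d level was held within 0.5 of the wild-type one, this count describes the choice and supports nothing further. At 15 d the mutant minus wild-type difference was -0.46 to 0.49 by construction. The smallest mutant difference between ages was still 13.6-fold. No member was at the floor on any 5 d array, whereas 55 were at the floor on at least 1 of the 6 arrays at 15 d, 8 of them on all 6 and 12 on none. A fold between ages is therefore often a lower bound.

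Just inside the limit of 4.5 lay AT3G52110 at 4.61, 256918_s_at at 4.58, 259290_at, ATMYC1 and 250413_at, the last 3 at 4.54. Just outside it lay AT2G07170 at 4.48, 254109_at and 263914_at at 4.47, and GLC and 261080_at at 4.46. The limit thus cuts through a run of closely spaced values. On the limit between genotypes, members reached -0.46 and 0.49, and the nearest probe sets beyond it were 259912_at at 0.54, 246004_at at 0.55 and 266687_at at 0.57.

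Roles were given by hand from background knowledge after the members were known, so the size of a role group has no test, and 9 named loci have none. Genes of surface lipids numbered 8. GDSL-type esterase/lipases, of which 4 are members, include enzymes that build the cutin polyester, and lipid-transfer proteins bind lipids outside the cell. AT1G62500, which encodes a lipid-transfer-like protein, had 2626 and 3821 in triple mutant leaves at 5 d against 3916 and 4688 in wild type. At 15 d it had 28.2, 25.5 and 30.0 in the mutant against 21.7, 12.1 and 40.5 in wild type, where values under 33 are at the floor and have no order. The lowest 5 d array was thus far above the highest 15 d array, which follows largely from the choice of members. Both 5 d mutant arrays were below both wild-type arrays, as for 19.1% of all probe sets, and these wild-type arrays had chosen the members. The GDSL gene AT5G45670 had 2031 and 2319 in the mutant against 2565 and 3383 in wild type at 5 d, and was at the floor on all 6 arrays at 15 d. Its fold between ages was at least 65.8-fold in the mutant and at least 89.3-fold in wild type. AT4G28780, another GDSL gene, had 1535 and 1397 in the mutant against 2014 and 1727 in wild type at 5 d. Its mutant arrays were below its wild-type arrays, against the same share of 19.1%. At 15 d it had 63.5, 9.19 and 11.7 in the mutant, and all 3 wild-type arrays were at the floor.

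Most other lipid members were equally dark at 15 d. AT5G33370, of the cutin synthase family of GDSL enzymes, had 1141 and 1182 in mutant leaves at 5 d against 1596 and 1539 in wild type, and a highest 15 d signal of 38.0. The epoxide hydrolase gene AT3G05600 was at the floor on all 6 arrays at 15 d, and the desaturase-family gene AT1G06100 had at most 49.2 there. The GDSL gene AT5G45950 differed from these. It had 172, 1.18 and 4.11 at 15 d in the mutant and 166, 1.41 and 1.36 in wild type, so that 1 array of each genotype kept a signal and the others were at the floor. Wild-type differences between ages ran from 4.96 to 6.92 over the 8 lipid genes, and mutant ones from 4.25 to 6.58.

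Wall and secreted proteins numbered 7. Thaumatin-like proteins, secreted relatives of pathogenesis-related proteins, account for 3 of these genes. AT1G73620 had 3711 and 4017 in mutant leaves at 5 d against 5019 and 4269 in wild type, and 28.4, 19.5 and 44.2 against 29.4, 2.97 and 6.15 at 15 d. ATLP-1 had 3560.4 and 3357 in the mutant against 4266 and 3575 in wild type at 5 d, and 44.1, 12.2 and 13.6 against 90.2, 33.4 and 21.0 at 15 d. AT2G28790 had 6575 and 5570.1 in the mutant against 8046 and 7205 in wild type at 5 d. It stayed above the floor at 15 d, with 50.2, 131 and 138 in the mutant and 98.2, 111 and 146 in wild type. For all 3 the 5 d mutant arrays were below both wild-type arrays, as for 19.1% of all probe sets, and these wild-type arrays had chosen the members. The remaining genes encode a pectate lyase family member (AT3G53190), an invertase or pectin methylesterase inhibitor (AT5G20740), a beta-glucanase family member (AT4G29360) and the subtilisin-like protease SBT1.3. Pectate lyases and pectin methylesterases act on the pectin of the wall. AT3G53190 had 3262 and 3000.2 in the mutant against 2856 and 3314 in wild type at 5 d, and the genotypes overlapped. Across the group the mutant minus wild-type difference at 5 d was -0.38 to 0.12.

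**Figure D2:**
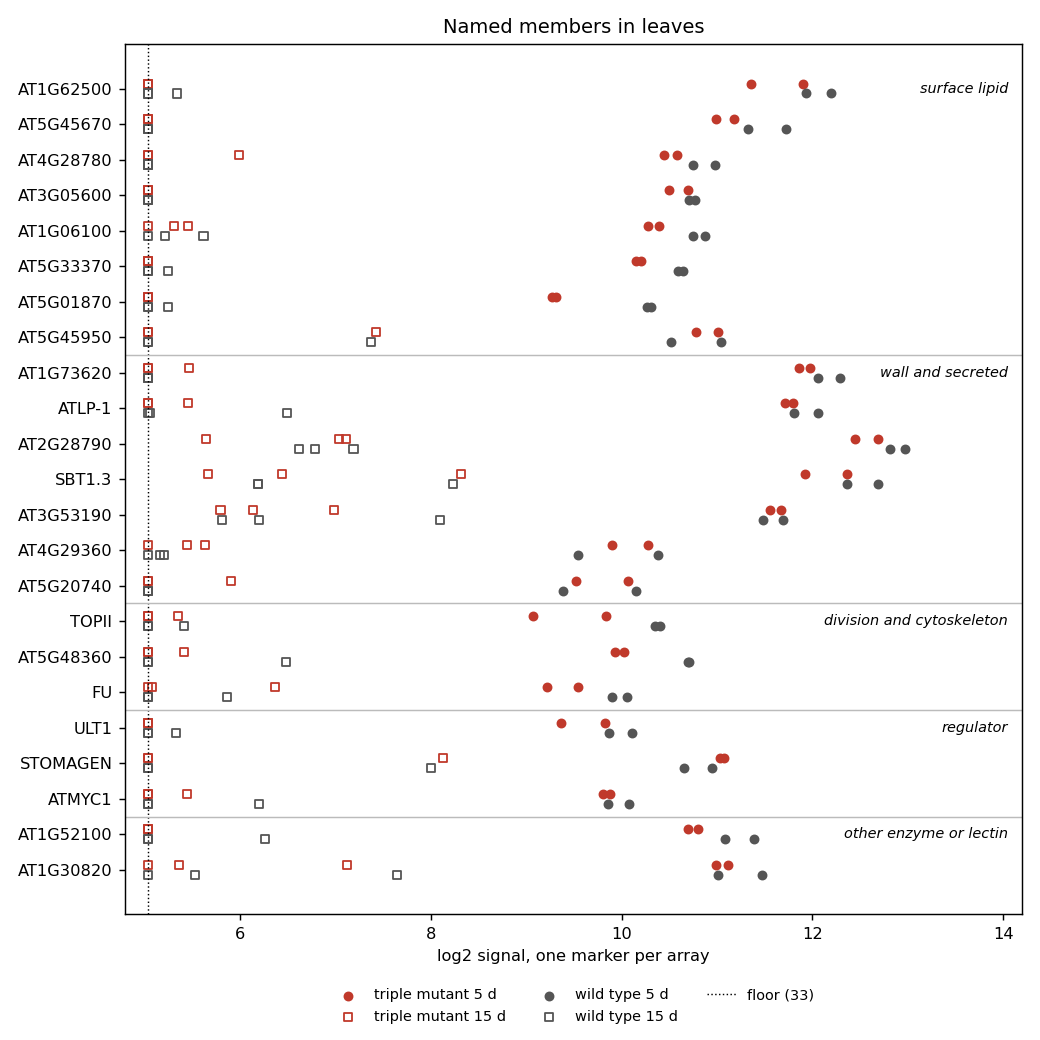
Log2 signal of the 23 named members with a role in leaves, 1 marker per array, in the triple mutant (upper row of each gene) and wild type (lower row) at 5 d (filled circles) and 15 d (open squares); the dotted line is the floor. The 5 d and 15 d markers do not overlap for any gene, which follows largely from the choice of members. STOMAGEN, AT5G45950, SBT1.3 and AT1G30820, for example, each have 1 mutant and 1 wild-type 15 d array well to the right of the others.

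Division and cytoskeleton genes were few. TOPII encodes DNA topoisomerase II, which untangles sister DNA before chromosomes separate. It had 917 and 538 in mutant leaves at 5 d against 1306 and 1357 in wild type, and at most 42.8 at 15 d. AT5G48360, a formin gene whose family nucleates actin filaments, had 979.8 and 1041 in the mutant against 1676 and 1655 in wild type at 5 d. FU, a FUSED-type kinase needed for the phragmoplast that builds the new wall between daughter cells, had 746 and 595 in the mutant against 958 and 1063 in wild type. All 3 were lower on both mutant arrays than on both wild-type arrays at 5 d, against the same background of 19.1%. Of 33 genes on the G2/M list 8 had a named probe set that was tested, and 4 of those differed by at least 4.5 between ages in wild type, but none was a member. The rest could not be looked up among the members without a gene name. AUR1, AUR2 and 3xHMG-box2 were too far apart between genotypes at 15 d, and AT1G63100 was left out by name. AUR1, a mitotic Aurora kinase gene, had means of 543 in the mutant and 60.4 in wild type at 15 d. AUR3, another name the rule excludes, had a wild-type difference of 4.18 and would not have qualified. Of 16 DNA replication genes 2 were tested and neither was a member.

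Among the regulators, STOMAGEN encodes a secreted peptide made in the inner leaf tissue that promotes stomata. Its signal was 2154 and 2099.8 in mutant leaves at 5 d against 1616 and 1982 in wild type. Both mutant arrays were thus above both wild-type arrays, as for 17.8% of all probe sets. The log2 difference of STOMAGEN was 0.25 (SE 1.19). At 15 d it had 280.1, 1.84 and 19.6 in the mutant against 257, 3.71 and 5.15 in wild type, high on replicate 1 of each genotype and at the floor on the others. ULT1, a SAND-domain protein that restricts meristem size, had 910.3 and 659 in the mutant against 1105 and 937 in wild type at 5 d. ATMYC1, a bHLH factor of epidermal patterning, had 940.4 and 898 in the mutant against 1079 and 929 in wild type, and the genotypes overlapped. STOMAGEN was the 1 member of 4 tested stomatal lineage genes. SPCH and MUTE, excluded by name, differed by 4.08 and 1.47 between ages in wild type and were under the limit in any case. No member came from 6 tested leaf primordium and boundary regulators, of which NUB had the largest wild-type difference between ages, 3.29. The single tested cuticle and trichome genes of the lists, CR4 and TRY, were not members either.

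Loci without a role here included the member with the largest difference between ages. AT4G29030 had 8960.2 and 8243 in the mutant against 9426 and 8339 in wild type at 5 d, and was at the floor on all 6 arrays at 15 d. Its fold was at least 260-fold in the mutant and at least 269-fold in wild type. AT2G33850, at the floor on every 15 d array as well, had 3318 and 2571 in the mutant against 4681 and 2604 in wild type at 5 d. AT5G16250 kept some signal at 15 d, with 190.5, 53.9 and 39.0 in the mutant and 216, 67.3 and 40.7 in wild type. At 5 d it had 4402 and 3932 in the mutant against 4522 and 4050.3 in wild type, apart by less than the replicates of either genotype. The others of these 9 are AT3G02120, AT3G17680, AT3G12870, AT5G45700, AT3G20260 and AT3G52110. AT1G30820, the CTP synthase gene, had 2032 and 2220.3 in the mutant against 2849 and 2060.2 in wild type at 5 d. AT1G52100, the lectin gene, had 1782 and 1654 in the mutant against 2684 and 2175 in wild type. Along the chromosomes the nearest named members are AT5G45670 and AT5G45700, with 2 protein-coding genes between them.

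The 15 d arrays were not equally dark. The median signal of the 67 members was 53.2 on triple mutant replicate 1, and 22.2 and 27.5, both under the floor, on the other mutant arrays. In wild type it was 67.6 on replicate 1 against 26.6 and 26.3 on the others. Members above a signal of 100 numbered 20 on replicate 1 of each genotype, against 5 and 4 on the other mutant arrays and 5 and 5 on the other wild-type arrays. Replicate 1 was the highest of the 3 arrays in both genotypes for 34 members (50.7%), and for 30.6% of all probe sets tested in leaves. STOMAGEN, AT5G45950 and SBT1.3 (319, 51.0 and 87.2 in the mutant and 301, 73.1 and 73.0 in wild type) are examples. In the sense of a signal at the floor, silence at 15 d thus held for replicates 2 and 3 more than for replicate 1. All arrays were scaled to a common trimmed mean, but the median signal over all probe sets was higher on replicate 1 as well. That median was 169 in the mutant against 146 and 146 on the others, and 172 in wild type against 143 and 147. The photosynthesis sum was also highest on replicate 1: it was 48814 on replicate 1 against 7116 and 8659 on the other mutant arrays, and 64632 against 37427 and 28003 in wild type. What part the difference in array medians or the photosynthesis genes had in the members' signals was not tested.

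**Figure D3:**
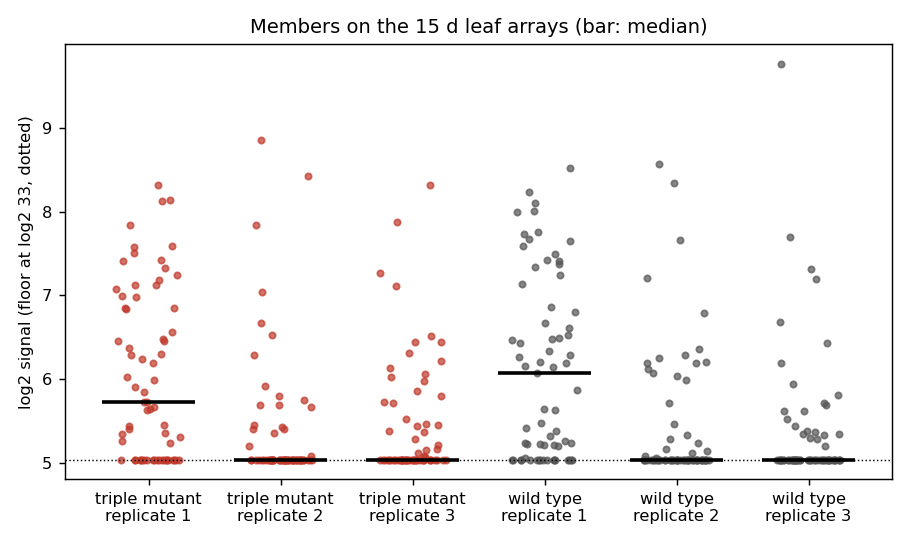
Log2 signal of the 67 members on each of the 6 arrays at 15 d, triple mutant on the left and wild type on the right, 1 point per member, with the median as a bar and the floor dotted. Replicate 1 has the highest median in both genotypes, at signals of 53.2 in the mutant and 67.6 in wild type, while the medians of the other 4 arrays are at the floor.

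In leaves of 5 d, none of the 67 members passed the test between genotypes, which was limma over all 10 leaf arrays with Benjamini-Hochberg adjustment over 16566 probe sets. Over all of these, the mutant was higher for 18 (0.109%) and lower for 3 (0.0181%). At an unadjusted p under 0.05 there were 2 of 67 members, against 859 of 16566 probe sets (5.19%). One is the lipid-transfer gene AT5G01870, with 620.1 and 635 in the mutant against 1271 and 1230.2 in wild type (log2 difference -1.0, SE 0.23, limma adjusted p = 0.264, 0.0648 to 1.0 over 18 alternatives). The other is TOPII (-0.92, SE 0.32, limma adjusted p = 0.681, 0.0688 to 1.0 over the alternatives). Standard errors of single members ran from 0.21 to 1.19 log2 units with a median of 0.41, and they rest on the spread of all 10 leaf arrays, those at 15 d included. The one of 1.19 is that of STOMAGEN.

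Differences at 5 d ran mostly one way. Of the members 57 had a lower and 10 a higher mean in the mutant, with a median difference of -0.28 on the log2 scale, against 53.7% lower and a median of -0.00 over all tested probe sets. Both mutant arrays were below both wild-type arrays for 35 members (52.2%, against 19.1% of all probe sets) and above both for 5 (7.46%, against 17.8%). The rule chose members for a high wild-type 5 d mean, on the same 2 wild-type arrays used here, which by itself favours lower values in the mutant. Other genes differed on these arrays too: the 4 photosynthesis genes had summed signals of 37344 to 44508 in the mutant against 25341 to 30738 in wild type, without overlap, and AT1G22690 averaged 134 in the mutant and 14.8 in wild type. Their part in the members' differences was not tested. Among the 44 probe sets chosen by the same wild-type difference but apart at 15 d, 10 were lower (22.7%) and 9 higher (20.5%) without overlap, with a median of -0.06. Those 44 were also set apart by genotype at 15 d, where the mutant was higher for 41, so they are no baseline for the members. The difference between these sets was not tested. For the members, both mutant arrays had the shift to lower values, with medians of -0.26 for replicate 1 and -0.35 for replicate 2 against the wild-type mean. By role, 3 of 3 division and cytoskeleton genes, 7 of 8 lipid genes, 9 of 9 loci without a role, 4 of 7 wall genes, 2 of 3 regulators and both remaining genes had the lower mean in the mutant.

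**Figure D4:**
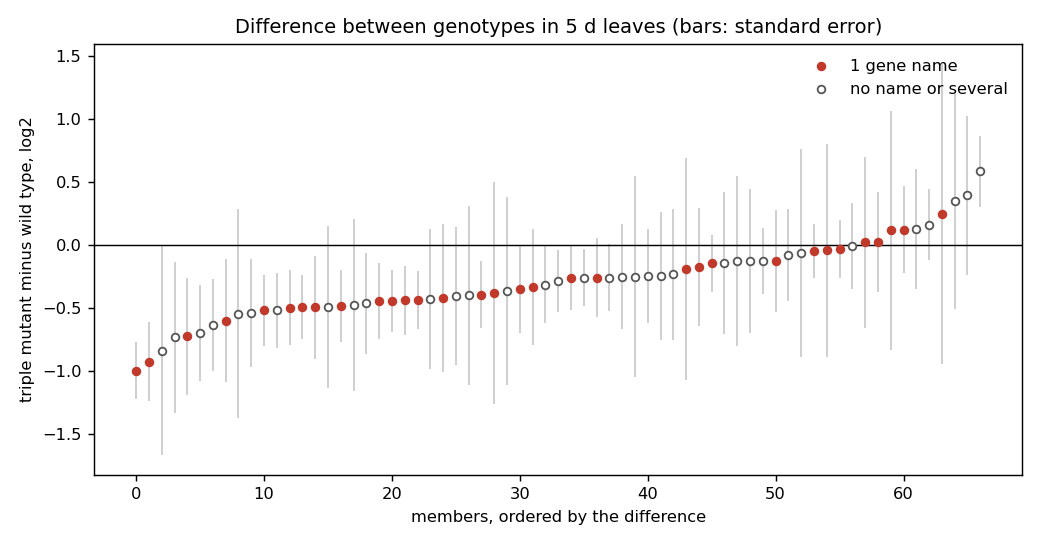
Log2 difference between triple mutant and wild type in 5 d leaves for the 67 members, ordered by size, with the standard error of the limma fit as bars (2 arrays per genotype); filled points have 1 gene name. Points run from -1.0 (AT5G01870) to 0.58, 57 of 67 lie below 0, and none passed the adjusted test.

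Seedlings took no part in choosing the members. On all 10 seedling arrays every member was above the floor, 670 values of 670, although 21.4% to 24.5% of all probe sets were at the floor there. For 65 members every seedling array was above every 15 d leaf array, and for 60 every seedling array was below every 5 d leaf array. Of all probe sets tested in seedlings 17.1% met the first condition and 17.3% the second. Since members were chosen for low 15 d and high wild-type 5 d signals on these leaf arrays, both counts follow in part from the choice. The wild-type seedling was below the wild-type 5 d mean by a median of 1.76 log2 units (differences of -4.36 to 1.0) and above the 15 d mean by a median of 3.35 (0.59 to 6.18). Seedling and leaf samples are different tissues of different age with 1 wild-type seedling array, so this comparison has no test.

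The lipid-transfer gene AT5G01870 was the exception in level. Its mutant seedlings ran from 2195 to 3343 with a median of 2979.6 and wild-type seedlings had 2507, against 620.1 and 635 in mutant and 1271 and 1230.2 in wild-type leaves at 5 d. It was the 1 member whose wild-type seedling was above the wild-type leaf means at both ages. The next in that order, the unnamed 245688_at, had a difference of -0.39 log2 units from the wild-type 5 d mean. It ran from 3905 to 5949.7 with a median of 5007 in mutant seedlings against 4063 in the wild-type seedling, all above its mutant 5 d leaf signals of 2375 and 3747. SBT1.3 ran from 1688 to 2631 with a median of 2257 in mutants against 2774 in wild type, which here was above all 9 mutants. Among the members with the lowest wild-type seedling signal, the lectin gene AT1G52100 ran from 146 to 376 with a median of 241 in mutants against 171 in wild type. The beta-glucanase gene AT4G29360 ran from 178 to 294 with a median of 205 in mutants against 235 in wild type, and AT5G45700 from 143 to 331 with a median of 203 against 255. In all 3 the wild type lay within the mutants' range. The unnamed 245306_at had the largest drop, with 15778 and 12617 in mutant and 10714 and 10753 in wild-type leaves at 5 d, against 524 in wild-type seedlings.

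Among seedling genotypes 58 members (86.6%) stayed within 2-fold of wild type in all 9 mutants, against 91% of all probe sets, and among them were 21 of the 23 with a role. The range over the 10 arrays had a median of 0.72 log2 units in the members, from 0.28 to 3.63, and of 0.67 in all probe sets. It was 0.60 in the 11934 probe sets whose wild-type seedling signal was at or above that of the lowest member. STOMAGEN, for example, ran from 1231 to 1633 with a median of 1309 in mutants against 1248 in wild type, and the cutin synthase family gene AT5G33370 from 186 to 373 with a median of 332 against 311. Median log2 ratios of the members over wild type were between -0.09 and 0.18 in the 9 mutants. All 9 ratios share the 1 wild-type array.

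Lower signals stood out in the genotypes that lack both MYB3R1 and MYB3R4. In the myb3r1 myb3r4 double mutant 6 of 67 members (8.96%) were at least 2-fold lower, against 0.377% of all probe sets, and 0 were at least 2-fold higher, against 0.688%. The quadruple mutant had 7 lower (10.4%, against 0.744%) and 0 higher (against 1.47%). In the myb3r3 myb3r4 myb3r5 triple mutant 3 were lower (4.48%, against 0.545%) and 1 higher (1.49%, against 1.21%). In the myb3r1 myb3r3 myb3r5 triple mutant 1 was lower (1.49%, against 1.07%) and 0 higher (against 1.55%). The myb3r4 single mutant had 1 higher (1.49%, against 0.57%) and 0 lower (against 1.05%), and 0 members passed 2-fold in the remaining genotypes. Over all probe sets the share at least 2-fold higher there was 0.906% in myb3r1, 1.49% in myb3r3, 0.866% in myb3r5 and 1.54% in myb3r3 myb3r5, and the share at least 2-fold lower was 0.463%, 0.784%, 0.402% and 0.55% in the same order. With 1 array per genotype these counts have no replicate check. The 44 probe sets apart at 15 d had 3 lower and 0 higher in myb3r1 myb3r4, and 1 lower and 10 higher in the quadruple mutant.

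The genes concerned are named here after their values were seen. AT3G02120 had 50.5 in the myb3r1 myb3r4 mutant and 39.7 in the quadruple mutant, against 407 in wild type. That is 8.06-fold and 10.3-fold lower, and the signal was then near the floor. It had 154 in myb3r3 myb3r4 myb3r5 and 229 in myb3r4, while the other 5 mutants had 311 to 492. AT3G52110 had 102 and 77.0 in the first pair of genotypes against 341 in wild type, and AT5G16250 had 705 and 733 against 1522. In AT3G52110 the myb3r3 myb3r4 myb3r5 and myb3r4 mutants were intermediate, with 145 and 179.9. Unnamed 253480_at had 529 in myb3r1 myb3r4 and 540.0 in the quadruple mutant against 2349.7 in wild type, and 246920_at had 191 and 147 against 483. The probe set shared by AT5G36800 and AT5G36710 had 530.1 and 349 against 1109. These are 3 of the 9 loci without a role and 3 probe sets without 1 gene name. The remaining member lower in the quadruple mutant, unnamed 245306_at, departed from this pattern. It had 184 there and 235 in myb3r1 myb3r3 myb3r5 against 524 in wild type, but 445 in myb3r1 myb3r4, within 2-fold of wild type. None of the named lipid, wall or regulator genes was 2-fold lower in any seedling genotype. Over all probe sets only 0.377% to 1.07% were lower per genotype, so absence from such small groups carries little weight. Members without 1 gene name were given no role. The 2 higher values were TOPII in myb3r4 (718 against 350.4 in wild type) and AT1G52100 in myb3r3 myb3r4 myb3r5 (376 against 171).

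**Figure D5:**
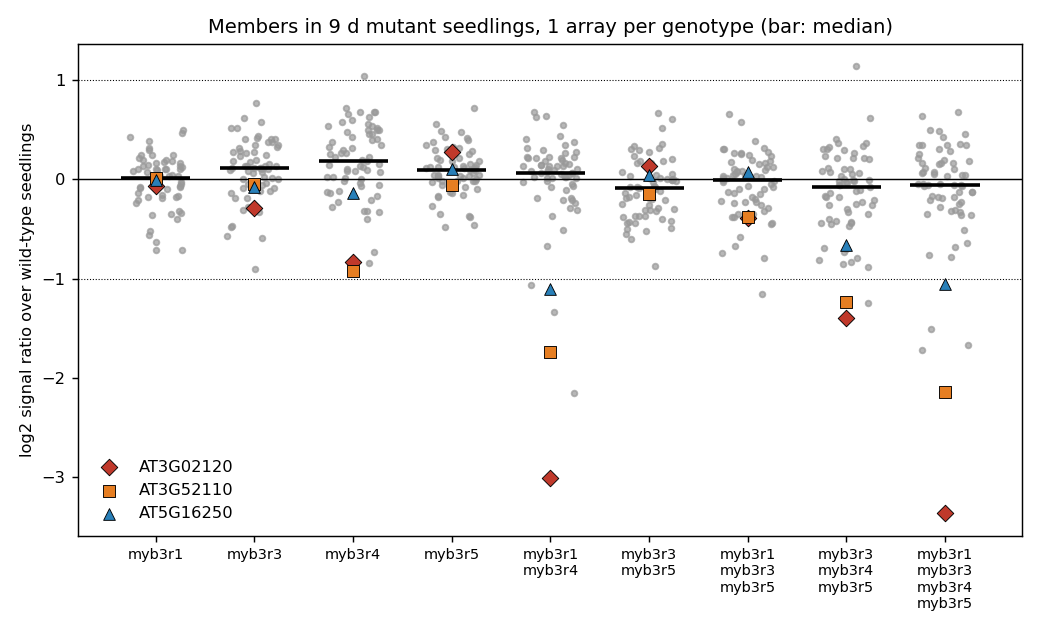
Log2 signal ratio over wild-type seedlings for the 67 members in each of 9 mutant genotypes (1 array each; grey points are members, bars medians, dotted lines 2-fold). Medians lie between -0.09 and 0.18, and AT3G02120, AT3G52110 and AT5G16250 fall below the 2-fold line in myb3r1 myb3r4 and in the quadruple mutant, at -3.01, -1.73 and -1.11 and at -3.36, -2.15 and -1.05.

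An additive limma fit with 1 term per mutant allele over the 10 seedling arrays, adjusted over 19636 probe sets, called no member for any of the 4 alleles. Without replicates its residual spread, which sets the standard errors, holds array noise and any allele effects that do not add up. These cannot be told apart. For AT3G02120 the log2 ratio over wild type was -0.07 in myb3r1, -0.83 in myb3r4 and -3.01 in myb3r1 myb3r4. Whether its allele effects add up was not tested. Over all probe sets the fit called 1 higher for myb3r3 (0.00509%), 3 lower for myb3r4 (0.0153%), and 0 for myb3r1 and myb3r5. At an unadjusted p under 0.05 there were 10 of 67 members for myb3r1 (4 higher, 6 lower). The myb3r3 term had 5 (0 higher, 5 lower), myb3r4 had 9 (2 higher, 7 lower) and myb3r5 had 8 (1 higher, 7 lower). Over all probe sets the shares were 9.91%, 10.4%, 5.65% and 7.68% in the same order. The members' share was above these for myb3r1, myb3r4 and myb3r5 and below for myb3r3, which was not tested. The lowest adjusted p of a member was 0.110, for AT3G52110 and the myb3r4 term (log2 effect -1.33, SE 0.16; 0.00178 to 0.695 over 16 alternatives). For AT3G02120 the myb3r4 term was -1.92 (SE 0.34, limma adjusted p = 0.624, 0.0153 to 1.0 over the alternatives). A stricter filter, a signal of at least 4 times the floor on 1 array, made the myb3r4 term call 3 members lower, AT3G52110, AT3G02120 and 253480_at, of 10 probe sets called in all (0.0695%). The fit without a floor called 2 members, of 9 in all (0.0396%).

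A fit that sets the 2 genotypes lacking both MYB3R1 and MYB3R4 against the other 8 seedling arrays was added after these values were seen, so its p-values are not independent evidence. It called no member either, and 2 probe sets lower (0.0102%) and 0 higher. AT3G02120 had an effect of -2.86 (SE 0.37, limma adjusted p = 0.0632, 0.00305 to 0.409 over 16 alternatives). AT5G16250 had -1.0 (SE 0.17, limma adjusted p = 0.20, 0.00154 to 0.762) and AT3G52110 -1.59 (SE 0.33, limma adjusted p = 0.409, 0.0789 to 1.0). At an unadjusted p under 0.05 there were 9 members (13.4%), against 3.08% of all probe sets. With the stricter filter this fit called 4 members lower, AT3G02120 and AT5G16250 among them (limma adjusted p = 0.00327 and 0.0313), and 11 of 14394 probe sets in all (0.0764%). Without the myb3r3 myb3r4 myb3r5 array it also called 4 members, and 8 probe sets in all (0.0409%). At 5 d the triple mutant leaves, which keep MYB3R4, had 1109.8 and 1022 for AT3G02120 against 1755 and 1282 in wild type (log2 difference -0.49, SE 0.30, limma adjusted p = 1.0).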

How the data were processed

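The authors deposited 1 linear intensity for each probe set on each array, made with MAS5 per the submitters' processing notes. Per the labels' protocols, RNA was purified on RNeasy columns and 10 micrograms were labelled with biotin. Signals under 33 were set to 33 and log2 was taken. Two-sided tests came from limma 3.58.1 (R 4.3.3, variance trend). It was fitted to the 10 leaf arrays (6 residual degrees of freedom) for probe sets above the floor on every array of a group. Fits to the 10 seedling arrays took those above it on at least 1. The allele fit there left 5 residual degrees of freedom, and the fit for both genes absent, with fewer terms, left more. An adjusted p under 0.05 was a call. Figures used matplotlib 3.10.9 under Python 3.11.15.

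On the array 13513 probe sets have 1 gene name, 503 several and 8730 none. The gene table (TAIR10.1) gave names and neighbours only. All 67 members passed both filters. Signals on each young-leaf array are given for up to 3 members per role group with the largest wild-type difference between ages. Mature-leaf signals are given for only some of these members, in part as a maximum or as arrays at the floor. Seedling signals are summarised over genotypes for the 3 highest and 3 lowest members in wild-type seedlings. Other genes were named after their values were seen. The members and lists were chosen with earlier results of these data known. Alternatives covered the floor, the filter, quantile normalization, the variance trend, the arrays fitted, the replicate block and leaving out each array.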

Additional observations from a re-analysis of the deposited data

How the results depend on the processing

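No member passed the 5 d test under any of 8 alternative settings or with any of the 10 leaf arrays left out, and the members' median difference stayed between -0.35 and -0.26. The number of probe sets called over the whole array, 21, was less stable: it was 524 without triple mutant 5 d replicate 1, 111 without wild-type 5 d replicate 1, 75 with no filter on low signals, 39 with a floor of 66, 4 without triple mutant 5 d replicate 2 and 1 when only the 5 d arrays were fitted. Where a 5 d array was left out, the lone one was assumed to vary like the other groups. At 5 d, samples with the same number correlated at 0.48 in their deviations, which with 2 pairs settles nothing about pairing (at 15 d 0.73, 0.60 and 0.57), and with the replicate number as a block 0 members and 52 probe sets in all were called. The member list depends on the floor: a floor of 66 left 43 (39 shared), no floor gave 80 (40 shared), quantile normalization 72 (66 shared), and leaving out 1 array 49 to 75. In seedlings no allele term called a member under any alternative, except the myb3r4 term with no floor (2) and with the stricter filter (3). The fit for both genes absent called 1 with no floor, 4 with the stricter filter and 0 to 4 with 1 array left out. Under quantile normalization 0 members passed 2-fold in myb3r4 seedlings, against 1. Why these counts moved was not tested. Many 15 d signals lie at the floor, where no difference can be measured.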
